A study of Mus musculus with 18 samples.

Results

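The 10 genes described here are feedback brakes and ETS-family targets of the extracellular signal-regulated kinase (ERK) pathway, measured in the apex of mouse hearts. They are the dual specificity phosphatases Dusp4, Dusp5 and Dusp6, the Sprouty genes Spry1, Spry2 and Spry4, the Sprouty-related Spred1, and the ETS transcription factors Etv1, Etv4 and Etv5. They were taken by gene name from the deposited table, where each name stood at 1 of 54532 genes. All 10 passed the filter on low counts, which left 17876 genes for testing.

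Growth factor receptors switch on Ras, which starts a chain of the kinases Raf, MEK and ERK. Active ERK turns on genes whose products then damp the chain: Dusp proteins remove phosphate from ERK and related kinases, while Sprouty and Spred proteins act further up, at Ras and Raf. Etv1, Etv4 and Etv5 form the PEA3 subfamily of ETS factors, which are transcribed downstream of receptor signals and bind GGAA-centred sites. In mice with mutations of Lmna, the gene of lamins A and C, raised ERK activity in the heart is a known feature of the cardiomyopathy.

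The question of the series was how hearts respond when lamin C or lamin A is raised with a recombinant adeno-associated virus of serotype 9 (rAAV9) after knockdown of Lmna, a model of dilated cardiomyopathy. The 6 groups held 3 libraries each. In batch LC they were hearts labelled Lmna shRNA+Lamin C (called lamin C hearts here), hearts labelled Lmna shRNA (shRNA-labelled hearts) and controls. In batch LA they were hearts labelled Lmna shRNA+Lamin A (lamin A hearts), shRNA-labelled hearts and controls. All 6 groups were labelled WT in genotype. The promoters that drove the shRNA and the lamins, the viral doses, the age and sex of the mice and what the controls received are not given in the sources used here. Each lamin was present in 1 batch, so a lamin and its batch can be told apart only through the batch's own shRNA-labelled hearts and controls. Nothing in the labels names separate cages or litters, so p-values measure only the spread between these samples. The third controls of the 2 batches carry consecutive sample numbers, apart from those of the other controls, so whether they belong with their batch or form a set of their own cannot be told from the labels.

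Each library held 31418657 to 41259968 counts. Lmna, the target of the shRNA, had 1064 to 1375 CPM (the usual depth-scaled count, with library sizes adjusted by the trimmed mean of M-values, TMM) in lamin C hearts, 501 to 556 in lamin A hearts, 115 to 137 in the 6 shRNA-labelled libraries and 112 to 128 in the 6 controls. Lmna counts were thus not lower in shRNA-labelled hearts (log2 change 0.06 ± 0.08, SE, edgeR adjusted p = 0.578 in batch LC; 0.11 ± 0.08, edgeR adjusted p = 0.258 in batch LA), and every direction below rests on the labels. Defining markers of cardiomyocytes, fibroblasts, endothelial cells and macrophages were above 0 in every group. Summed markers of fibroblasts reached a median of 4974 CPM in lamin C hearts, 13493 in shRNA-labelled hearts and 2969 in controls of batch LC, and 10593 in lamin A hearts, 13666 in shRNA-labelled hearts and 3089 in controls of batch LA. Summed markers of cardiomyocytes moved the other way, with medians of 65160 CPM in lamin C hearts, 34523 in shRNA-labelled hearts and 76662 in controls of batch LC, and 51715 CPM in lamin A hearts, 36757 in shRNA-labelled hearts and 74553 in controls of batch LA. In tissue RNA, more cells of a type and more RNA per cell cannot be told apart.

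Levels between genes were compared on the deposited FPKM, which is per gene length. Spry1, Spry2, Dusp6 and Etv5 were the most abundant of the 10 genes in every group, except that Spred1 stood above Spry2 in shRNA-labelled hearts of batch LC (8.16 against 7.90 FPKM). The gene with the highest mean differed between groups. Spry1 led in shRNA-labelled hearts, with 15.6 ± 2.19 FPKM in batch LC and 14.1 ± 0.796 in batch LA (SD, n = 3 each), whereas Spry2 led in controls, with 9.80 ± 0.995 and 9.52 ± 1.15 FPKM. Spry2 also led in lamin C hearts (10.8 ± 0.820 FPKM), and Etv5 led in lamin A hearts (11.96 ± 0.521 FPKM). Etv4 was the least abundant in both control groups, at 0.256 ± 0.0780 and 0.184 ± 0.0609 FPKM, and also in lamin C hearts (0.384 ± 0.155) and lamin A hearts (0.819 ± 0.0293). In shRNA-labelled hearts Etv1 held that place instead (0.967 ± 0.0662 and 0.960 ± 0.0244 FPKM).

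**Figure D1:**
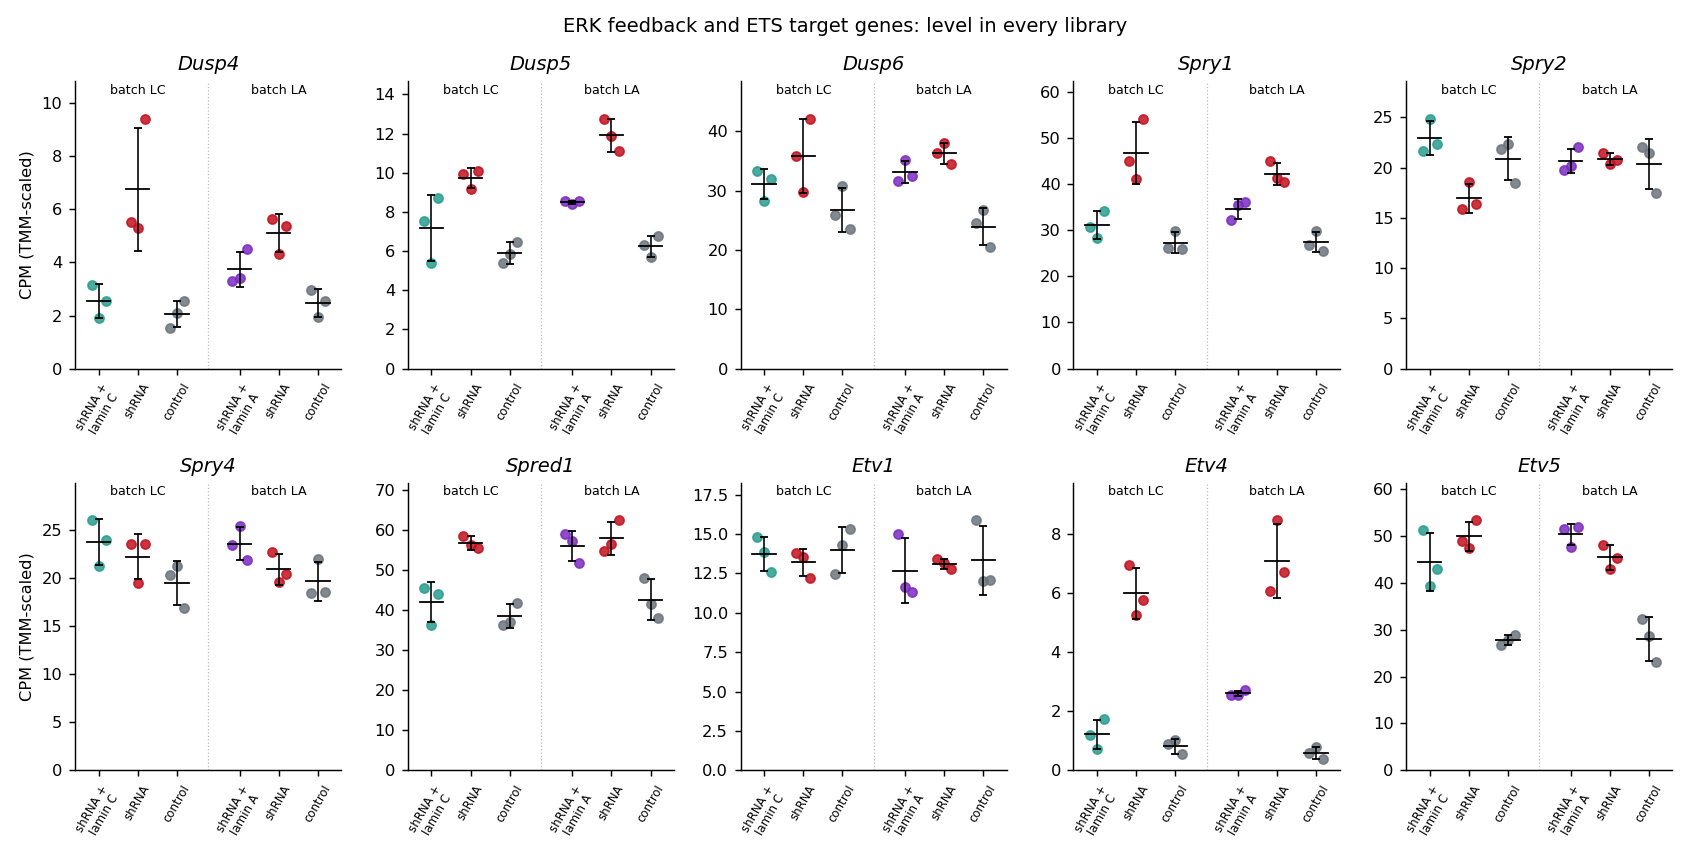
CPM of each of the 10 genes in the 18 libraries on linear axes from 0, with 1 panel per gene, points for single libraries, horizontal lines for group means and error bars for the SD. Etv4 lies between 5.28 and 8.47 CPM in shRNA-labelled hearts and between 0.397 and 1.02 in controls, while the 6 groups of Etv1 overlap.

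The first question was how these genes differed between shRNA-labelled hearts and controls, asked once in each batch. In batch LC 7 of the 10 genes rose and Spry2 fell; in batch LA 7 rose and 3 were not called. The 7 that rose were Dusp4, Dusp5, Dusp6, Spry1, Spred1, Etv4 and Etv5 in both batches, each set against the 3 controls labelled for that batch. Over all tested genes 33.3% rose and 29.6% fell in batch LC, and 32.4% rose and 29% fell in batch LA (edgeR adjusted p under 0.05). The median log2 change of the 10 genes was 0.64 in batch LC and 0.61 in batch LA, beside 0.05 over all tested genes in each. These values use TMM scaling. With library totals alone the median of all genes moved to 0.47 and 0.48, 58.3% and 59.5% of all genes rose, 13.5% and 12.7% fell, and 9 and 10 of the 10 genes rose.

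Among the ETS factors, Etv4 changed most and Etv1 was not called. Etv4 had 6.97, 5.28 and 5.76 CPM in shRNA-labelled hearts of batch LC, against 0.882, 1.02 and 0.537 CPM in controls. In batch LA it had 6.06, 8.47 and 6.72 CPM in shRNA-labelled hearts, against 0.573, 0.784 and 0.397 CPM in controls. Every shRNA-labelled library was above every control, which held for 34.7% of all tested genes in batch LC and 35.8% in batch LA. The same shares stand beside each member below whose shRNA-labelled hearts lay wholly above controls. The log2 change was 2.88 ± 0.26 in batch LC, a 7.36-fold rise (edgeR adjusted p = 1.04e-08), and 3.58 ± 0.27 in batch LA, an 11.97-fold rise (edgeR adjusted p = 8.94e-10). Etv4 (ENSMUSG00000017724, chr11:101769742-101785371, minus strand, mm10) is a low gene in this tissue, with 11 to 29 counts in single control libraries, so its fold changes carry wide 95% intervals, 2.33 to 3.43 and 3.01 to 4.15 on the log2 scale.

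Etv5 (ENSMUSG00000013089, chr16:22381309-22439719, minus strand) was higher by less, from a far higher level. It had 48.9, 47.5 and 53.3 CPM in shRNA-labelled hearts of batch LC, against 26.7, 27.8 and 28.9 CPM in controls. In batch LA its values were 48.1, 42.9 and 45.3 CPM in shRNA-labelled hearts, against 32.4, 28.6 and 23.2 CPM in controls. The groups did not overlap in either batch, and the rises were 0.85 ± 0.10 and 0.70 ± 0.10 on the log2 scale (edgeR adjusted p = 4.85e-07 and 6.31e-06). Etv1 (ENSMUSG00000004151, chr12:38779380-38870484, plus strand) had 13.8, 13.6 and 12.2 CPM in shRNA-labelled hearts of batch LC, against 12.4, 14.3 and 15.3 CPM in controls. Its groups overlapped in both batches, with log2 changes of -0.08 (95% interval -0.33 to 0.16) and -0.03 (-0.27 to 0.22) under TMM scaling, which turned to 0.34 and 0.41 and were called with library totals alone (edgeR adjusted p = 0.0188 and 0.00587).

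All 3 phosphatases rose in both batches. Dusp4 (ENSMUSG00000031530, chr8:34807297-34819894, plus strand), a nuclear phosphatase of ERK, JNK and p38, had 5.54, 5.31 and 9.43 CPM in shRNA-labelled hearts of batch LC, against 1.54, 2.11 and 2.54 CPM in controls. In batch LA it had 5.64, 4.31 and 5.38 CPM in shRNA-labelled hearts, against 2.96, 1.93 and 2.56 CPM in controls. The groups were apart in both batches, and the log2 changes were 1.71 ± 0.25 and 1.04 ± 0.24 (edgeR adjusted p = 6.22e-06 and 0.00108).

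Dusp5 (ENSMUSG00000034765, chr19:53529109-53542431, plus strand) encodes a nuclear phosphatase selective for ERK. It had 9.96, 9.15 and 10.1 CPM in shRNA-labelled hearts of batch LC, against 5.39, 5.82 and 6.48 CPM in controls, and 12.8, 11.9 and 11.1 CPM in shRNA-labelled hearts of batch LA, against 6.33, 5.68 and 6.74 CPM in controls. The groups did not overlap, and the rises were 0.72 ± 0.13 and 0.93 ± 0.13 on the log2 scale (edgeR adjusted p = 8.53e-05 and 3.92e-06). Dusp6 (ENSMUSG00000019960, chr10:99263231-99267489, plus strand), the cytoplasmic ERK phosphatase, had 35.8, 29.7 and 42.1 CPM in shRNA-labelled hearts of batch LC, against 25.9, 30.8 and 23.5 CPM in controls. Here the groups overlapped by 1 library on each side. In batch LA they were apart, at 36.3, 38.0 and 34.5 CPM in shRNA-labelled hearts, against 24.6, 26.7 and 20.5 CPM in controls. The log2 changes of Dusp6 were 0.42 ± 0.12 and 0.60 ± 0.12 (edgeR adjusted p = 0.00364 and 0.000186), the smallest of the 3 phosphatases.

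The Sprouty genes, whose products hold back signalling from receptor to Ras and Raf, did not move together. Spry1 (ENSMUSG00000037211, chr3:37639947-37644598, plus strand) had 44.9, 41.0 and 54.2 CPM in shRNA-labelled hearts of batch LC, against 26.1, 29.8 and 25.9 CPM in controls. In batch LA it had 44.9, 41.2 and 40.5 CPM in shRNA-labelled hearts, against 26.9, 29.8 and 25.5 CPM in controls. No shRNA-labelled library came down to the controls, and the rises were 0.78 ± 0.10 and 0.62 ± 0.10 on the log2 scale (edgeR adjusted p = 7.5e-07 and 1.24e-05). The gene model Gm42922 on the opposite strand overlaps Spry1, with at most 28 counts in a library where Spry1 had at least 706.

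Spry2 (ENSMUSG00000022114, chr14:105891947-105896819, minus strand) had 15.9, 18.5 and 16.4 CPM in shRNA-labelled hearts of batch LC, against 21.9, 22.3 and 18.4 CPM in controls. The third control lay within the range of the shRNA-labelled hearts. Spry2 fell by 0.30 ± 0.09 on the log2 scale in batch LC (edgeR adjusted p = 0.00811), but with library totals alone the value was 0.12 and not called (edgeR adjusted p = 0.235). In batch LA it had 21.5, 20.3 and 20.7 CPM in shRNA-labelled hearts, against 22.1, 21.4 and 17.5 CPM in controls, and a log2 difference of 0.04 with a 95% interval of -0.16 to 0.23. With library totals alone that difference was 0.47 and was called higher (edgeR adjusted p = 9.53e-05).

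Spry4 (ENSMUSG00000024427, chromosome 18, minus strand) had 23.5, 19.5 and 23.6 CPM in shRNA-labelled hearts of batch LC, against 20.3, 21.3 and 16.9 CPM in controls, and its groups overlapped in batch LA as well. Its log2 differences were 0.19 (95% interval -0.03 to 0.41) and 0.09 (-0.13 to 0.31) and missed the threshold, while library totals alone gave 0.62 and 0.53 with calls in both batches (edgeR adjusted p = 4.5e-05 and 0.000229). Without the second shRNA-labelled heart of batch LC, Spry4 was called higher there (0.27, edgeR adjusted p = 0.0366). Spred1 (ENSMUSG00000027351, chr2:117121374-117182279, plus strand), which works with neurofibromin to switch Ras off, had 58.7, 56.3 and 55.6 CPM in shRNA-labelled hearts of batch LC, against 36.5, 37.2 and 41.9 CPM in controls. In batch LA it had 54.9, 56.6 and 62.6 CPM in shRNA-labelled hearts, against 48.2, 41.7 and 38.1 CPM in controls. Its groups were apart in both batches, and it rose by 0.56 ± 0.09 and 0.44 ± 0.09 on the log2 scale (edgeR adjusted p = 2.17e-05 and 0.00029).

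**Figure D2:**
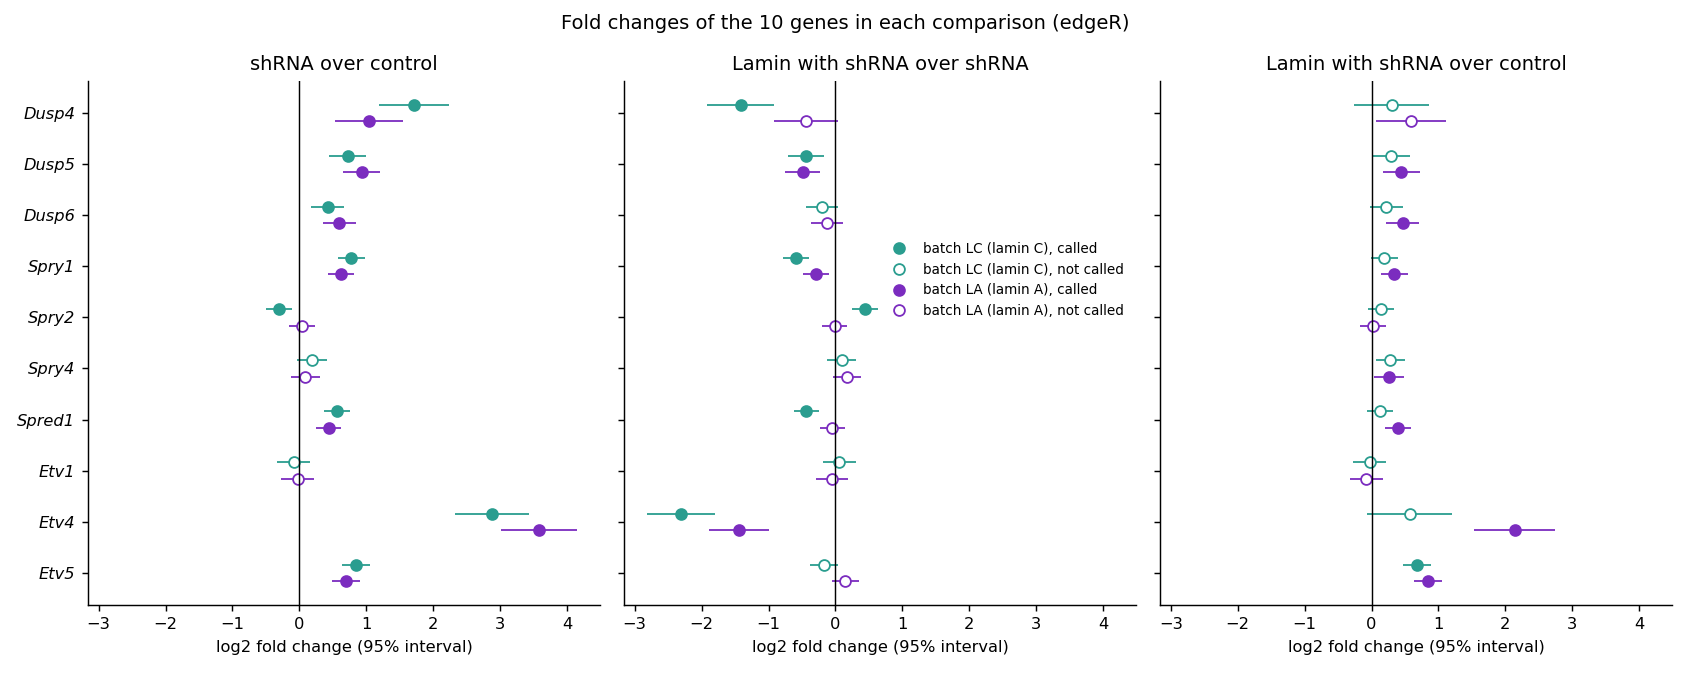
Log2 fold changes of the 10 genes with 95% intervals from edgeR, for shRNA-labelled hearts against controls, lamin hearts against shRNA-labelled hearts and lamin hearts against controls. Filled points passed an adjusted p under 0.05 and open points did not; Etv4 lies farthest from 0 in each panel except for lamin C hearts against controls, where Etv5 does.

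The size of these differences was compared between the batches. None of the 10 genes was called for a difference of the shRNA effect between batch LC and batch LA by edgeR or by DESeq2, and Spry2 alone had an unadjusted p under 0.05 in edgeR (difference -0.34 ± 0.13, adjusted p = 0.725). Over all tested genes 0.00559% were called higher in this contrast. The intervals were wide for the low genes: the difference for Etv4 was -0.70 (95% interval -1.54 to 0.14) and that for Dusp4 was 0.67 (-0.06 to 1.41).

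Sequences upstream of the RefSeq starts were read for the 10 genes, and are shown for Dusp5, Dusp6 and Spry1, which rose, and for Spry2, which did not rise with Spry1 under TMM scaling. RefSeq's GRCm38.p6 table matched 7 of the 10 genes with 9 windows of 250 bases, and did not list Dusp4, Etv4 or Spry4. Shown 5′ to 3′ on the gene's strand are Dusp5 (chr19:53528895-53529108, plus strand), Dusp6 (chr10:99262981-99263230, plus strand), Spry1 (chr3:37639697-37639946, plus strand) and Spry2 (chr14:105896820-105897069, minus strand), the Dusp5 window being printed up to the gene start of the deposited table. Capitals mark the ETS core CCGGAAG, the PEA3 core AGGAAG and the CArG box, the site of serum response factor, searched on both strands, as were all motifs below.
Dusp5: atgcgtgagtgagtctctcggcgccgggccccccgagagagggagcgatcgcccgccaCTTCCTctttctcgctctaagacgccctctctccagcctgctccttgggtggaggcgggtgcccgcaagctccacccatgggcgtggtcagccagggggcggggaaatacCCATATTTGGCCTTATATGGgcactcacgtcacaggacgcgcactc
Dusp6: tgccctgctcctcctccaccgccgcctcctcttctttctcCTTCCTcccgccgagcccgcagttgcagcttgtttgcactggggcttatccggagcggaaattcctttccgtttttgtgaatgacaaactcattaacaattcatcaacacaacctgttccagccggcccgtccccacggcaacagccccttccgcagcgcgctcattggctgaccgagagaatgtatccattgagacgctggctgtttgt
Spry1: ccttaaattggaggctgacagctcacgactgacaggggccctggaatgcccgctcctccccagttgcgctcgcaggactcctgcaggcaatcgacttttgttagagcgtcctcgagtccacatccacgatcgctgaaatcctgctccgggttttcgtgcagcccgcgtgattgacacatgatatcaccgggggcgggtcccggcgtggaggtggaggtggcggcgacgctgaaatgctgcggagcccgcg
Spry2: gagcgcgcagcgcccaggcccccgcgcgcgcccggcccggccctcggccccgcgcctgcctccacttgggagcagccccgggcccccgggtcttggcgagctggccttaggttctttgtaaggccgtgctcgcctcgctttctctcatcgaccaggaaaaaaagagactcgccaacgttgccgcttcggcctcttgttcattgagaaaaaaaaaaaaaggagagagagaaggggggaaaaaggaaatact
The Dusp5 window held a pair of CArG boxes side by side, CCATATTTGG and CCTTATATGG, from 82 to 63 bases before the RefSeq start, and a PEA3 core on the minus strand (CTTCCT as printed). Dusp6 held 1 PEA3 core on the minus strand, and the Spry1 and Spry2 windows held no match to these motifs. Over the 9 windows, which include Etv1, 3 held AGGAAG (33.3%, against 29.5% of all 32851 windows), 1 held a CArG box (11.1%, against 1.47%), 4 held the GC box GGGCGG (44.4%, against 32.7%), and none held CCGGAAG (6.91% of all), TGACGTCA (1.55%) or TGANTCA (6.75%). These are matches of letters in short windows and say nothing of binding.

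Adding a lamin was examined against the shRNA-labelled hearts of the same batch. With lamin C, Dusp4, Dusp5, Spry1, Spred1 and Etv4 fell and Spry2 rose, so that 5 of the 10 genes fell and 1 rose, beside 28.4% and 25.7% of all tested genes. With lamin A 3 fell, namely Dusp5, Spry1 and Etv4, beside 13.7% of all tested genes. The median log2 change of the 10 genes was -0.32 with lamin C and -0.09 with lamin A, beside -0.04 and -0.003 over all tested genes. With library totals alone the median of all genes was -0.36 and -0.21, 51.5% and 34.7% of all genes fell, and 7 and 6 of the 10 genes fell. These comparisons share their shRNA-labelled hearts with those above.

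Etv4 had 1.199, 0.737 and 1.73 CPM in lamin C hearts, against 5.28 to 6.97 CPM in the shRNA-labelled hearts of batch LC. In lamin A hearts it had 2.54, 2.57 and 2.71 CPM, against 6.06 to 8.47 CPM in those of batch LA. Both lamin groups lay wholly below their shRNA-labelled hearts. This held for 31.9% of all tested genes with lamin C and 22% with lamin A, while 28.5% lay wholly above with lamin C. The same shares stand beside the other members set apart from shRNA-labelled hearts below. Etv4 fell by 2.31 ± 0.24 on the log2 scale with lamin C (edgeR adjusted p = 1.34e-07) and by 1.44 ± 0.22 with lamin A (edgeR adjusted p = 5e-05). Ordered by mean CPM, the groups of Etv4 ran from controls of batch LA (0.584) and controls of batch LC (0.812) through lamin C hearts (1.22) and lamin A hearts (2.61) to shRNA-labelled hearts of batch LC (6.002) and of batch LA (7.09). The ranges of the 2 control groups, of batch LC controls and lamin C hearts, and of the 2 shRNA-labelled groups overlapped, while lamin A hearts overlapped with neither neighbour.

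Etv5 showed no such fall. It had 51.2, 39.2 and 42.9 CPM in lamin C hearts, against 47.5 to 53.3 in shRNA-labelled hearts, and 51.4, 47.7 and 51.9 CPM in lamin A hearts, against 42.9 to 48.1 in shRNA-labelled hearts. The groups overlapped in both batches. The log2 differences were -0.17 (95% interval -0.37 to 0.04, edgeR adjusted p = 0.155) with lamin C and 0.15 (-0.06 to 0.35, edgeR adjusted p = 0.283) with lamin A. With library totals alone Etv5 was called lower with lamin C (-0.48, edgeR adjusted p = 0.000572), as it was without the first lamin C heart (-0.28, edgeR adjusted p = 0.0243).

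Of the phosphatases, Dusp4 had 3.16, 1.91 and 2.56 CPM in lamin C hearts, wholly below the shRNA-labelled hearts, and fell by 1.41 ± 0.24 on the log2 scale (edgeR adjusted p = 5.33e-05). In lamin A hearts it had 3.32, 3.42 and 4.50 CPM, overlapping the lowest shRNA-labelled library at 4.31, and the difference of -0.44 ± 0.23 missed the threshold (edgeR adjusted p = 0.162). Dusp5 fell with both lamins. It had 7.53, 5.38 and 8.70 CPM in lamin C hearts and 8.54, 8.39 and 8.54 CPM in lamin A hearts, each below all shRNA-labelled libraries of its batch, with falls of 0.44 ± 0.13 and 0.49 ± 0.12 on the log2 scale (edgeR adjusted p = 0.00703 and 0.00553). Without the second lamin C heart, its lowest, the fall of Dusp5 with lamin C was 0.26 and was not called (edgeR adjusted p = 0.0561). Dusp6 had 33.2, 28.3 and 31.9 CPM in lamin C hearts and 31.6, 35.2 and 32.5 CPM in lamin A hearts, overlapping the shRNA-labelled hearts, and was not called (edgeR adjusted p = 0.139 and 0.422). Without the second shRNA-labelled heart of batch LC, its lowest, Dusp6 was called lower with lamin C (-0.32, edgeR adjusted p = 0.0212).

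Spry1 had 30.7, 28.4 and 34.2 CPM in lamin C hearts, against 41.0 to 54.2 in shRNA-labelled hearts, and 32.1, 35.5 and 36.1 CPM in lamin A hearts, against 40.5 to 44.9 in shRNA-labelled hearts. It fell by 0.59 ± 0.09 on the log2 scale with lamin C (edgeR adjusted p = 2.96e-05) and by 0.29 ± 0.09 with lamin A (edgeR adjusted p = 0.0253). The call with lamin A was lost without the first shRNA-labelled heart (-0.24, edgeR adjusted p = 0.109) or without the first lamin A heart (-0.23, edgeR adjusted p = 0.112). Spry2 went the opposite way with lamin C, at 21.6, 24.9 and 22.3 CPM, all above the shRNA-labelled hearts, a rise of 0.44 ± 0.09 (edgeR adjusted p = 0.00047) that was 0.13 and not called with library totals alone (edgeR adjusted p = 0.213). In lamin A hearts Spry2 had 19.7, 20.2 and 22.0 CPM and a difference of -0.01 (95% interval -0.20 to 0.18).

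Spred1 fell with lamin C, to 45.6, 36.3 and 44.1 CPM, all below the shRNA-labelled hearts, by 0.44 ± 0.09 on the log2 scale (edgeR adjusted p = 0.000387). In lamin A hearts it had 59.0, 57.5 and 51.9 CPM, within the span of the shRNA-labelled hearts but for its lowest library, with a difference of -0.05 (95% interval -0.23 to 0.14). Spry4 had 26.0, 21.2 and 24.0 CPM in lamin C hearts and 23.5, 25.4 and 21.9 CPM in lamin A hearts, and Etv1 had 14.8, 13.8 and 12.6 CPM in lamin C hearts and 15.0, 11.6 and 11.3 CPM in lamin A hearts. Neither Spry4 nor Etv1 was called, and their groups overlapped the shRNA-labelled hearts.

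Lamin hearts were next set against the controls of their batch, which are the same controls as before. In lamin C hearts Etv5 rose and the other 9 genes were not called, beside 8.87% of all tested genes that rose. In lamin A hearts 7 of the 10 genes rose, beside 24.1% of all tested genes: Dusp5, Dusp6, Spry1, Spry4, Spred1, Etv4 and Etv5. The median log2 difference was 0.25 in lamin C hearts and 0.42 in lamin A hearts, beside 0.00 and 0.02 over all tested genes. With library totals alone the median of all genes was 0.11 and 0.26, 16.1% and 42.9% of all genes rose, and 3 and 9 of the 10 genes rose.

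Etv5 was higher than in controls by 0.68 ± 0.10 on the log2 scale in lamin C hearts (edgeR adjusted p = 0.000192) and by 0.84 ± 0.10 in lamin A hearts (edgeR adjusted p = 1.22e-06), with every lamin library above every control. Such upward separation from controls held for 15.6% of all tested genes in lamin C hearts and 29.1% in lamin A hearts. Etv4 was 0.57 ± 0.30 above controls in lamin C hearts with overlapping groups (edgeR adjusted p = 0.228) and 2.14 ± 0.29 above them in lamin A hearts, a 4.41-fold rise without overlap (edgeR adjusted p = 5.5e-06). Dusp4 lay wholly above controls in lamin A hearts but was not called (0.60 ± 0.25, edgeR adjusted p = 0.0584), whereas Spry4 was called with overlapping groups. In lamin A hearts the other called rises were smaller: Dusp6 by 0.47 ± 0.12 (edgeR adjusted p = 0.00292), Dusp5 by 0.44 ± 0.13 (0.00969), Spred1 by 0.39 ± 0.09 (0.00134), Spry1 by 0.34 ± 0.10 (0.00729) and Spry4 by 0.26 ± 0.10 (0.0466). Of these, Dusp5 lost its call without the second control (0.37, edgeR adjusted p = 0.0523). The Spry4 call was the least steady, with an adjusted p of 0.0611 in DESeq2, and was lost without the first or the third control (0.21 and 0.22) or the first or the second lamin A heart (0.27 and 0.20; adjusted p from 0.083 to 0.178 in edgeR). In lamin C hearts Dusp5 and Spry4 were called higher without the second lamin C heart (0.46 and 0.36, edgeR adjusted p = 0.00909 and 0.0376), and in lamin A hearts Dusp4 was called higher without the first control (0.74, edgeR adjusted p = 0.0476).

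The effects of the lamins were then compared with each other, each over its own batch. The lamin C effect over shRNA-labelled hearts was lower than the lamin A effect for Dusp4 (difference -0.97 ± 0.33, edgeR adjusted p = 0.0478) and Spred1 (-0.39 ± 0.13, 0.0364) and higher for Spry2 (0.46 ± 0.13, 0.0189). Over all tested genes 9.9% were lower and 8.84% higher in this contrast. For Etv4 the difference of -0.86 ± 0.32 missed the threshold (edgeR adjusted p = 0.0715). Over controls, Etv4 alone differed, with the lamin C value 1.57 ± 0.43 below the lamin A value on the log2 scale (edgeR adjusted p = 0.0188), beside 7.35% of all tested genes that were lower.

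These differences of effects rested on few libraries. The Dusp4 difference was no longer called without any 1 of the 3 lamin A hearts, any 1 of the 3 shRNA-labelled hearts of batch LA, the second or the third lamin C heart or the third shRNA-labelled heart of batch LC, with values from -1.05 to -0.66 and adjusted p from 0.0516 to 0.142. That of Spred1 was lost without the first or second lamin A heart, the first or second shRNA-labelled heart of batch LA, the second lamin C heart or the first shRNA-labelled heart of batch LC (-0.37 to -0.30, adjusted p from 0.0729 to 0.112). That of Spry2 was lost without the second lamin C heart or the first shRNA-labelled heart of batch LC (0.39 and 0.41, adjusted p = 0.0638 and 0.0546). The Etv4 difference over controls was lost without the second control of batch LC (-1.38, adjusted p = 0.0643) or the third control of batch LA (-1.36, adjusted p = 0.0566; all by edgeR). Calls for the difference of effects were gained by Etv4 without the third lamin C heart (-1.21), by Etv5 without the first lamin C heart (-0.43) and by Spry1 without the second shRNA-labelled heart of batch LC (-0.39; edgeR adjusted p from 0.0161 to 0.0441).

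The make-up of each family was read from FPKM within a library, which no scaling of libraries can move. The ratio of Spry1 to Spry2 ran from 0.819 to 1.1002 in lamin C hearts, 1.59 to 2.37 in shRNA-labelled hearts and 0.855 to 1.01 in controls of batch LC (n = 3 each). In batch LA it averaged 1.203 ± 0.0530 in lamin A hearts, 1.45 ± 0.0476 in shRNA-labelled hearts and 0.974 ± 0.0891 in controls (SD), with no overlap among the 3 groups. Etv4 made up 3.20% ± 1.29 of the FPKM of the 3 PEA3 factors in lamin C hearts, 12.8% ± 1.69 in shRNA-labelled hearts and 3.25% ± 1.04 in controls of batch LC. In batch LA its share was 5.98% ± 0.292 in lamin A hearts, 15.9% ± 3.04 in shRNA-labelled hearts and 2.34% ± 0.669 in controls. Dusp4 took 6.68% ± 1.00 of the FPKM of the 3 phosphatases in lamin C hearts, 13.6% ± 2.51 in shRNA-labelled hearts and 6.47% ± 1.71 in controls of batch LC. In batch LA its shares overlapped, at 8.90% ± 1.503 in lamin A hearts, 10.2% ± 1.498 in shRNA-labelled hearts and 8.22% ± 1.85 in controls. With 3 libraries against 3, no exact test of a single ratio can go below 0.10, and none was run.

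**Figure D3:**
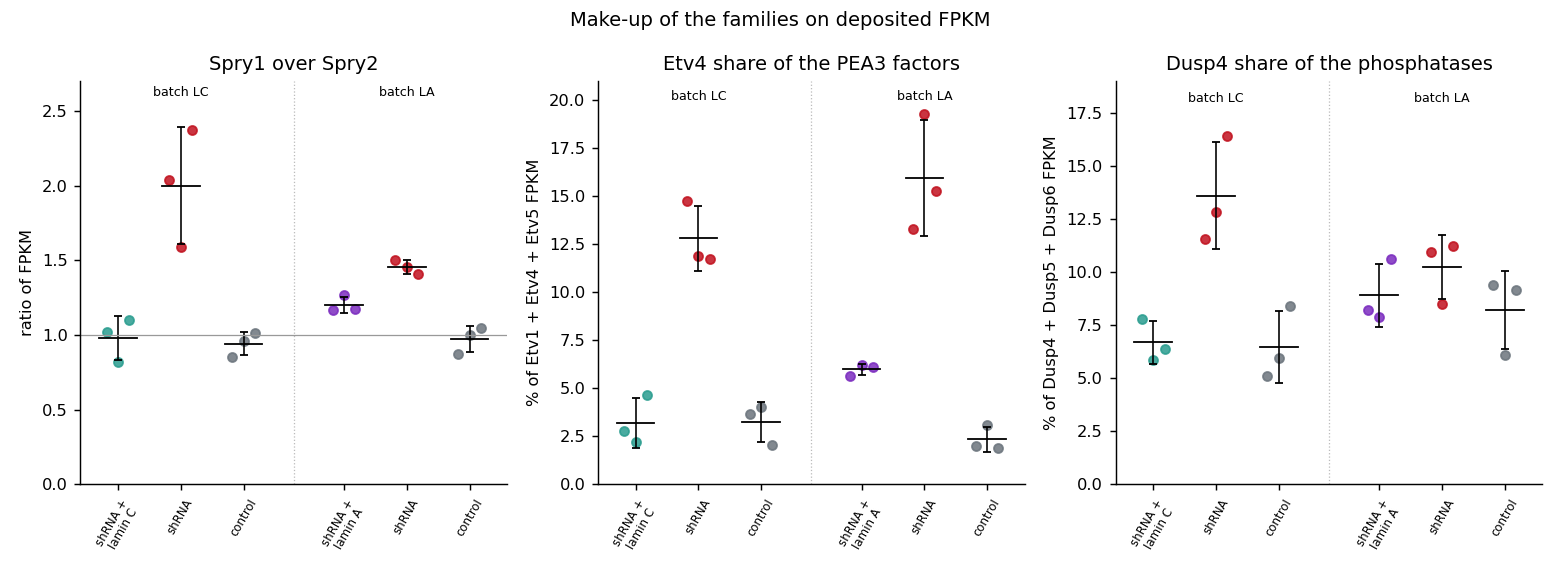
Ratio of Spry1 to Spry2 and the percentage of family FPKM taken by Etv4 and by Dusp4, for each library of the 6 groups, with lines for the means and error bars for the SD. The Spry1 to Spry2 ratio is 1.41 to 2.37 in shRNA-labelled hearts and 0.855 to 1.05 in controls.

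The rest of the pathway was followed through lists of genes by role, of which the receptor list shares Pdgfra with the fibroblast markers and Pdgfrb with the smooth muscle markers. Their counts for shRNA-labelled hearts against controls stand beside 33.3% of all tested genes higher and 29.6% lower in batch LC, and 32.4% higher and 29% lower in batch LA. Among growth factor ligands 9 of 22 tested genes rose and 7 fell in shRNA-labelled hearts against controls of batch LC, with a median log2 change of 0.09. Igf1, a growth factor for heart muscle, had 76.3 to 122 CPM in shRNA-labelled hearts and 15.8 to 27.0 CPM in controls (2.37 ± 0.19, edgeR adjusted p = 1.54e-09). Hbegf, a ligand of the EGF receptor, rose by 1.29 ± 0.09 in batch LC and 1.58 ± 0.09 in batch LA, whereas Fgf1 fell by 0.92 ± 0.07 and 0.85 ± 0.07 and Fgf13, an intracellular relative of the fibroblast growth factors, fell by 1.27 ± 0.09 in batch LC (edgeR adjusted p at most 1.85e-09). Of the receptor tyrosine kinases 11 of 17 rose and 4 fell in batch LC, and 11 rose and 3 fell in batch LA. Fgfr1, a receptor of fibroblast growth factors, had 114 to 116 CPM in shRNA-labelled hearts and 36.9 to 49.2 CPM in controls of batch LC (1.41 ± 0.09, edgeR adjusted p = 4.51e-11), Axl rose by 1.13 ± 0.08 and Met, the receptor of hepatocyte growth factor, by 1.95 ± 0.19. Epha4, an ephrin receptor, fell by 1.64 ± 0.13 in batch LC and by 2.17 ± 0.13 in batch LA (edgeR adjusted p = 1.15e-09 and 2.36e-11).

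The chain from Ras to ERK showed no common direction, with 6 of 23 tested genes higher and 9 lower in batch LC, 7 higher and 9 lower in batch LA, and medians of 0.00 and -0.03. Rras, a Ras relative, rose by 0.73 ± 0.08 in batch LC and 0.75 ± 0.08 in batch LA, and Gab1, a docking protein of receptors, fell by 0.60 ± 0.05 and 0.61 ± 0.05 (edgeR adjusted p at most 7.53e-08). Other brakes of the chain were split too, with 9 of 20 higher and 7 lower in batch LC and 6 higher and 5 lower in batch LA. Spred3 rose in both batches, by 1.44 ± 0.14 in batch LA, and Dusp2, a phosphatase of immune cells, was called higher at low levels, with 1.04 to 1.43 CPM in shRNA-labelled hearts and 0.175 to 0.196 CPM in controls of batch LC. Spred2 went the other way from Spred1 and Spred3, falling by 0.49 ± 0.08 and 0.35 ± 0.08 (edgeR adjusted p = 1.36e-05 and 0.000472).

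Of 20 ERK-inducible early and delayed genes 15 rose in shRNA-labelled hearts of batch LC and 17 in those of batch LA, and the others were not called. Their medians were 1.26 and 1.29, the highest of the 6 lists. The ranking is a description, since the lists were chosen with earlier results of these data known. Egr2, an early transcription factor, had 8.27 to 12.6 CPM in shRNA-labelled hearts and 0.430 to 0.912 CPM in controls of batch LC (3.99 ± 0.30, edgeR adjusted p = 8.12e-10). Atf3 rose by 2.84 ± 0.22, Emp1 by 2.80 ± 0.11 and Maff by 2.41 ± 0.19 in the same comparison (edgeR adjusted p at most 1.32e-09). With lamin C 12 of the 20 fell, and with lamin A 7 fell, with medians of -0.54 and -0.24, beside 28.4% and 13.7% of all tested genes that fell. Against controls 10 of the 20 were higher in lamin C hearts and 13 in lamin A hearts, beside 8.87% and 24.1% of all tested genes. Other ETS factors were divided, with 5 of 15 higher and 6 lower in batch LC and 5 higher and 8 lower in batch LA, the higher share being near that of all genes. Spi1, an ETS factor of macrophages and other myeloid cells, rose by 1.78 ± 0.13 in batch LC and Elf4 by 0.92 ± 0.09, while Ets1, strongly expressed in endothelium, fell by 0.63 ± 0.07 and Ets2 by 0.67 ± 0.06 (edgeR adjusted p at most 3.76e-07).

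**Figure D4:**
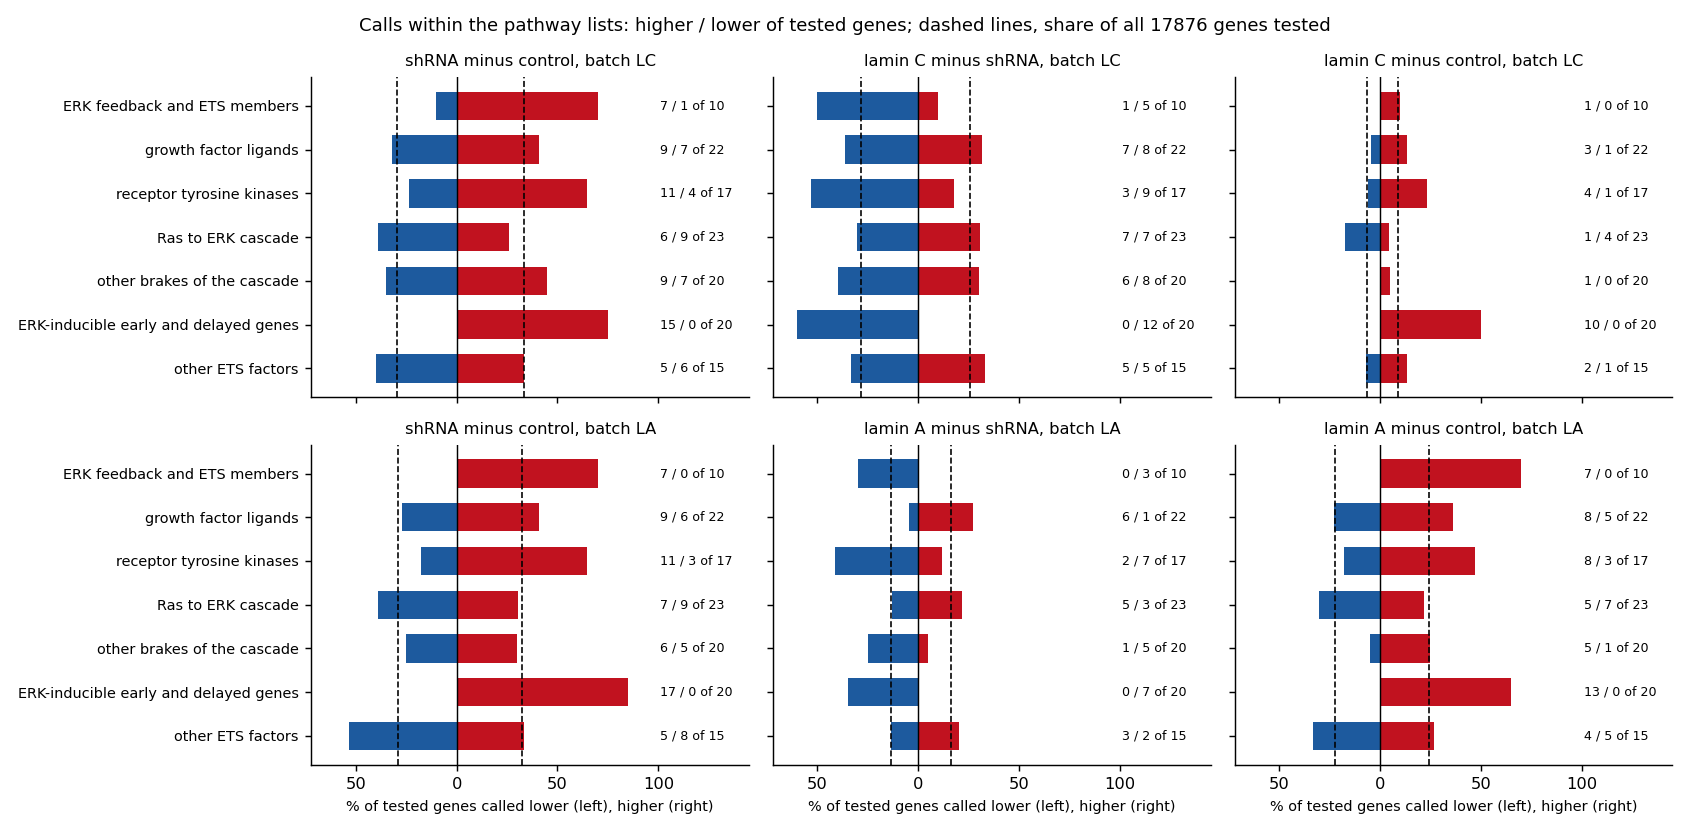
Percentage of tested genes of each pathway list called higher (right) and lower (left) by edgeR, with the counts written beside each bar and dashed lines for all tested genes. The list of ERK-inducible genes has 15 of 20 genes higher in shRNA-labelled hearts of batch LC and 17 of 20 in those of batch LA.

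Markers of cell types differed between the groups in either direction. In shRNA-labelled hearts against controls 9 of 10 fibroblast markers and 9 of 10 macrophage markers rose in each batch. All 9 cardiomyocyte markers and 9 of 10 endothelial markers fell in each batch. The endothelial marker Vwf rose in both batches, and the fibroblast marker Gsn fell in batch LA. Smooth muscle and pericyte markers were split, with 5 of 10 higher and 4 lower in each batch. Of 6 Schwann cell markers 2 rose in each batch and 1 fell in batch LC. Of all tested genes 33.3% rose and 29.6% fell in batch LC, and 32.4% rose and 29% fell in batch LA. Summed macrophage markers ran from 735 to 869 CPM in lamin C hearts, 1426 to 1628 CPM in shRNA-labelled hearts and 435 to 538 CPM in controls of batch LC, and from 1353 to 1478 CPM in lamin A hearts, 1425 to 1578 CPM in shRNA-labelled hearts and 484 to 511 CPM in controls of batch LA. Summed fibroblast markers ran from 3874 to 5400 CPM in lamin C hearts, 10525 to 14643 CPM in shRNA-labelled hearts and 2645 to 3300 CPM in controls of batch LC. In batch LA they ran from 9626 to 12100 CPM in lamin A hearts, 13133 to 13997 CPM in shRNA-labelled hearts and 3031 to 3341 CPM in controls. Lymphocyte markers (T and natural killer cells) were low but all 7 were called higher in both batches, with sums of 6.91 to 11.7 CPM in the 6 shRNA-labelled libraries and 1.503 to 3.10 CPM in the 6 controls. Of 6 atrial markers 4 were tested, and Dkk3, Myl4 and Myl7 rose in shRNA-labelled hearts of both batches and fell with each lamin. Nr2f2 was not called in these comparisons (0.03 and 0.10 in shRNA-labelled hearts, edgeR adjusted p = 0.788 and 0.321). The sums that follow moved mostly with Dkk3, which in batch LC had 84.0 CPM in shRNA-labelled hearts and 2.86 in controls without TMM scaling. Nr2f2 had 20.7 and 15.2 CPM there. Summed atrial markers ran from 27.0 to 39.6 CPM in lamin C hearts, 85.7 to 104 CPM in shRNA-labelled hearts and 20.8 to 24.0 CPM in controls of batch LC, and from 39.3 to 56.3 CPM in lamin A hearts, 79.7 to 85.5 CPM in shRNA-labelled hearts and 18.7 to 20.1 CPM in controls of batch LA. The 2 that were not tested, Sln and Bmp10, were at or near 0 in every group. The part of these cell types in the changes of the 10 genes was not tested. The share of counts from mitochondrially encoded protein-coding genes moved with the groups too and did not overlap between them within a batch. It was 22.5% to 23.9% in lamin C hearts, 12.6% to 15.3% in shRNA-labelled hearts and 24.4% to 24.7% in controls of batch LC, and 19.7% to 22.0% in lamin A hearts, 13.6% to 14.6% in shRNA-labelled hearts and 25.6% to 26.2% in controls of batch LA. With those genes removed, each call of the 10 genes stayed on its side of the threshold; the pathway lists and markers were not recomputed without them.

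The genes most like each member were found by the root mean square difference between log2 CPM profiles, each centred on its own mean over the 18 libraries. For Etv4 the nearest were Ddah1 (0.339) and Ifi27l2a (0.374), the largest distances given here. The Etv4 profile itself had a root mean square of 1.38, against 0.382 for Dusp5 and 0.312 for Spry1. Distances of different members are therefore not on a like footing. The nearest to Etv5 was Sdc4 (0.110), followed by Nuak1 (0.142). Dusp4 was nearest to Slit3 (0.167) and F2r (0.229), and Dusp5 to Dync2li1 (0.129) and Ctdspl (0.132). Spry1 was nearest to Tmem184c (0.0902) and Rsu1 (0.0950), and Spred1 to Ptbp3 (0.0773) and Rap1b (0.0800). These distances are descriptions over libraries that share batch and group.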

How the data were processed

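Directional poly(A) libraries of 18 mouse heart apices were sequenced, per the labels' protocols. The submitters' processing notes name StringTie 1.3.3b, DESeq2 1.20.0, HISAT2 2.0.5 and featureCounts 1.5.0-p3 and the mm10 build. The whole-number gene counts are as deposited by the authors, with no scaling. The deposited FPKM values follow a library size of the authors that was 0.879 to 1.23 of the count total. The sources used here do not say if strand was used in counting. No per-sample column was left unused.

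Counts were tested with the edgeR 4.0.16 quasi-likelihood F test (R 4.3.3) after TMM scaling and filterByExpr, in a single fit of the 6 groups with 12 residual degrees of freedom. A call means an adjusted p under 0.05 after Benjamini-Hochberg adjustment over all 17876 genes tested. Standard errors come from the F statistic, and intervals are 95%. A floor of 3 counts equals 0.0622 to 0.108 CPM, and no member fell to it. No library duplicated another of its own group: chi-square per gene between replicates ranged from 6.38 to 43.3. Libraries of different groups, among them the third controls of the 2 batches, were not compared in this way. The test was checked on simulated counts. The 10 genes, the pathway and marker lists and the tests were chosen with earlier results of these data known. All 10 members are named, with Lmna and up to 4 called genes of each pathway list by smallest p in a comparison of shRNA with control; the 2 nearest profiles (prior count 2, mean of at least 1 CPM) are given for members called in both such comparisons. Some genes that this rule names are not reported here. Upstream sequences come from RefSeq.

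Alternatives were RLE size factors, library totals alone, no filter on low counts, DESeq2 1.42.0, limma 3.58.1 on log2(FPKM + 1) with and without a filter of FPKM 1 in 3 libraries and on log2(FPKM + 0.1), the compared groups alone, a replicate block, removal of mitochondrially encoded genes, and leaving out each library.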

Additional observations from a re-analysis of the deposited data

Results flagged for a closer look

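The effects of the lamins differed for 3 of the 10 genes by a test of the difference itself (edgeR, each lamin over the shRNA-labelled hearts of its batch). In this contrast 9.9% of all tested genes were called lower and 8.84% higher, 18.7% in either direction. The Dusp4 effect was -1.41 with lamin C and -0.44 with lamin A, a difference of -0.97 ± 0.33 (edgeR adjusted p = 0.0478). The Spred1 effect was -0.44 with lamin C and -0.05 with lamin A, a difference of -0.39 ± 0.13 (edgeR adjusted p = 0.0364). The Spry2 effect was 0.44 with lamin C and -0.01 with lamin A, a difference of 0.46 ± 0.13 (edgeR adjusted p = 0.0189). Over controls, Dusp4, Spred1 and Spry2 were not called, with differences of -0.30, -0.27 and 0.11 (edgeR adjusted p = 0.66, 0.178 and 0.629). The shRNA effect of batch LC minus that of batch LA was 0.67 for Dusp4 and -0.34 for Spry2. Neither was called (edgeR adjusted p = 0.799 and 0.725). Measured over the controls, Etv4 stood 0.57 higher in lamin C hearts and 2.14 higher in lamin A hearts, a difference of -1.57 ± 0.43 (edgeR adjusted p = 0.0188). Of all tested genes 7.35% were lower in that contrast. All of these calls were lost when certain single libraries were left out, as given above. Each lamin was given in 1 batch, so these differences cannot be told apart from differences between the batches beyond what each batch's own shRNA-labelled hearts and controls remove.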

How the results depend on the processing

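Of 1680 values of single genes recomputed over 29 alternatives, 1600 kept their direction and their side of the threshold, 43 lost a call, 34 gained a call and 3 reversed. Library totals alone, 1 of these alternatives, gave 20 of the values that did not stay the same. The reversals came with library totals alone, where Spry2 was 0.12 in shRNA-labelled hearts against controls of batch LC and Etv1 was 0.34 in batch LC and 0.41 in batch LA. The TMM factors, which that setting leaves out, were 0.862 to 0.876 in controls and 1.16 to 1.19 in shRNA-labelled hearts. They were 0.917 to 0.956 in lamin C hearts and 1.01 to 1.04 in lamin A hearts. With library totals alone the number of the 10 genes lower in shRNA-labelled hearts of batch LC was 0, that higher with lamin C over shRNA-labelled hearts was 0, that lower with lamin A was 6, and that higher in lamin C hearts than in controls was 3. The same setting gave 0 higher and 5 lower for the lamin C effect minus the lamin A effect. Of all tested genes it gave 13.5% lower in shRNA-labelled hearts of batch LC and 13.1% higher with lamin C. It gave 34.7% lower with lamin A and 16.1% higher in lamin C hearts than in controls. For the difference of effects it gave 5.17% higher and 15.4% lower. No share of all genes is given for the settings that follow. Without the filter on low counts, 3 were higher in lamin C hearts than in controls and 5 were lower for the difference of effects. For that difference, limma gave 1 lower on log2(FPKM + 1), 1 on log2(FPKM + 0.1) and 0 higher and 0 lower with no FPKM filter, and the compared groups alone gave 1 lower; limma with no FPKM filter also gave 0 for the difference over controls. Leaving out single libraries moved the number higher in lamin C hearts than in controls between 1 and 3, the difference of effects between 0 and 1 higher and 0 and 3 lower, and the difference over controls between 0 and 1 lower. The cause of these shifts was not tested. In both batches replicate 3 of the controls, whose sample numbers are consecutive, had the lowest Dusp6, Spry1, Spry2 and Etv4 of the controls. Leaving out both of these libraries changed 1 call, that of Spry4 in lamin A hearts against controls (0.22, edgeR adjusted p = 0.116). Replicate numbers did not pair the samples: correlations of deviations from group means were -0.0459 to 0.0617 over 18 same-numbered pairs. With the replicate block the counts of calls were the same, except 8 instead of 7 genes higher in lamin A hearts than in controls, the addition being Dusp4 (0.60, edgeR adjusted p = 0.0302). Depth limits Etv4 most, with 11 to 29 counts in single controls.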
